A study of Arabidopsis thaliana with 6 samples.

Results

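The CLAVATA genes studied here were 8 Arabidopsis thaliana loci, taken by their locus identifiers from 26726 genes in the deposited expression table. They were the ligand gene CLV3 and the receptor genes CLV1, CLV2, CRN, BAM1, BAM2, BAM3 and RPK2. All 8 were in the table, and 7 passed the filter on low counts. CLV3 did not pass it. RNA came from root explants that had formed callus for 5 days on CIM and had then been moved for 7 days to SIM, on which shoots are induced. SIM contained a cytokinin, N6-(2-isopentenyl)adenine (1 mg/L), with the auxin IAA (0.15 mg/L), and all explants were cultured at 22 °C in constant light. Compared were wild type (WT), the single mutant arr1, and Pro35SARR1, in which the broadly active 35S promoter stands before ARR1. ARR1 is a transcription factor of the cytokinin response. The labels give no allele for arr1 and no line number for Pro35SARR1. There were 2 libraries per genotype. Whether they stem from separate cultures is not stated in the labels, so the p-values reflect no more than library-to-library spread, which may be technical.

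In the shoot apical meristem, the small secreted peptide made from CLV3 is perceived at the cell surface and limits the expression of WUS, the homeobox gene that keeps stem cells undifferentiated. WUS in turn activates CLV3, which closes a feedback loop. CLV1 is a leucine-rich repeat receptor kinase that binds the peptide, and BAM1, BAM2 and BAM3 are its closest relatives. CLV2 has a similar extracellular part but no kinase domain and works with CRN, a membrane-bound pseudokinase. RPK2 is a further leucine-rich repeat receptor kinase of the pathway.

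Total estimated counts ranged from 8193313 to 9381532 per library. ARR1 (AT3G16857) was at 61.3 and 59.8 CPM (counts per 1000000 of the TMM-scaled library size) in WT. The libraries labelled arr1 had 61.2 and 58.6 CPM, and Pro35SARR1 had 1725 and 1909 CPM. The ARR1 level thus set Pro35SARR1 apart, but WT and the libraries labelled arr1 could not be told apart by it (adjusted p = 0.949, edgeR quasi-likelihood test). Directions for arr1 below therefore depend on the sample labels. Of 3 root meristem markers, PLT1 and WOX5, defining genes of the root stem cell niche, averaged at most 1.66 CPM and 1.15 CPM in any genotype, while SCR, which is also expressed in the endodermis, averaged 26.0 CPM in WT, 41.6 CPM in arr1-labelled libraries and 21.3 CPM in Pro35SARR1.

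The ligand gene was close to the limit of detection. CLV3 (AT2G27250, chromosome 2, 11664986 to 11665769 in the deposited coordinates, minus strand) held 1.07 and 0 estimated counts in the WT libraries. The arr1-labelled ones held 1.97 and 4.27, and Pro35SARR1 held 1.002 and 1.15. A count of 3 in a library corresponded to between 0.335 and 0.345 CPM, and the second library labelled arr1, at 0.455 CPM, was the only library above that level. Its rounded count of 4 has an exact 95% Poisson interval of 1.09 to 10.2, which covers counting error only, and the interval around the single count of WT replicate 1 runs from 0.0253 to 5.57. CLV3 did not pass the filter on low counts, and genotypes were not compared for it. Where a library held any count, between 99.988% and 100% of it was assigned to 1 isoform of 516 bases.

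CLV1 was the 1 member that differed between genotypes in the test, and it was highest in the arr1-labelled libraries. CLV1 (AT1G75820, chromosome 1, 28463462 to 28466971, minus strand) stood at 18.2 and 20.9 CPM in WT. It stood at 53.6 and 44.2 CPM in the arr1-labelled libraries, and at 13.9 and 18.8 CPM in Pro35SARR1. Both arr1-labelled libraries lay above all 4 others, while WT and Pro35SARR1 overlapped. The bases directly upstream of the gene are shown because ARR1, the factor that the labels give as altered in 2 of the 3 genotypes, binds DNA. CLV3, the gene near the detection limit, and BAM2, which differed little between genotypes, are shown for comparison. Each line gives the 250 bases before the annotated gene start in RefSeq TAIR10.1, 5′ to 3′ on the gene's strand, and none of them overlaps an annotated exon. Capitals mark AGATT, the core sequence bound by ARR1 and its relatives, or its reverse complement AATCT.
CLV1, chr1:28466972-28467221, minus strand: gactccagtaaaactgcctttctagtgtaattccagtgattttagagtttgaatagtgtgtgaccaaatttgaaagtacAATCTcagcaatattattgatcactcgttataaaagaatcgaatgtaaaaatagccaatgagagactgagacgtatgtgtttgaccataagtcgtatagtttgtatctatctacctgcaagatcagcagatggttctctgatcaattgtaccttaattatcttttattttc
CLV3, chr2:11665798-11666047, minus strand: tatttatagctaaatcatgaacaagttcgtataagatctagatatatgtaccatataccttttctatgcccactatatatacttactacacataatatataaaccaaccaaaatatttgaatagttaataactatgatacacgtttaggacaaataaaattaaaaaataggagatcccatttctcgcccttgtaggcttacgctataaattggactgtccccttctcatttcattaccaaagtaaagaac
BAM2, chr3:18417318-18417567, plus strand: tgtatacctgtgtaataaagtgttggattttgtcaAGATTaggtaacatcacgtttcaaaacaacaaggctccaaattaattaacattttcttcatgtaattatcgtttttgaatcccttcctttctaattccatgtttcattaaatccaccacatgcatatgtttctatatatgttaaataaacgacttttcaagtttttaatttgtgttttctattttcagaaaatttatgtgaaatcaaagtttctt
CLV1 held 1 match, on the minus strand relative to the gene, BAM2 held 1 on the plus strand, and CLV3 held 0. At least 1 match occurred in 63.7% of the windows of the same length before 27443 protein-coding genes, so holding 1 does not set CLV1 apart. CLV2 and RPK2 each held 2 matches, a number reached or passed by 27.9% of genes, BAM1 held 1 and BAM3 held 0. The window before CRN overlaps an annotated exon and is not shown.

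**Figure D1:**
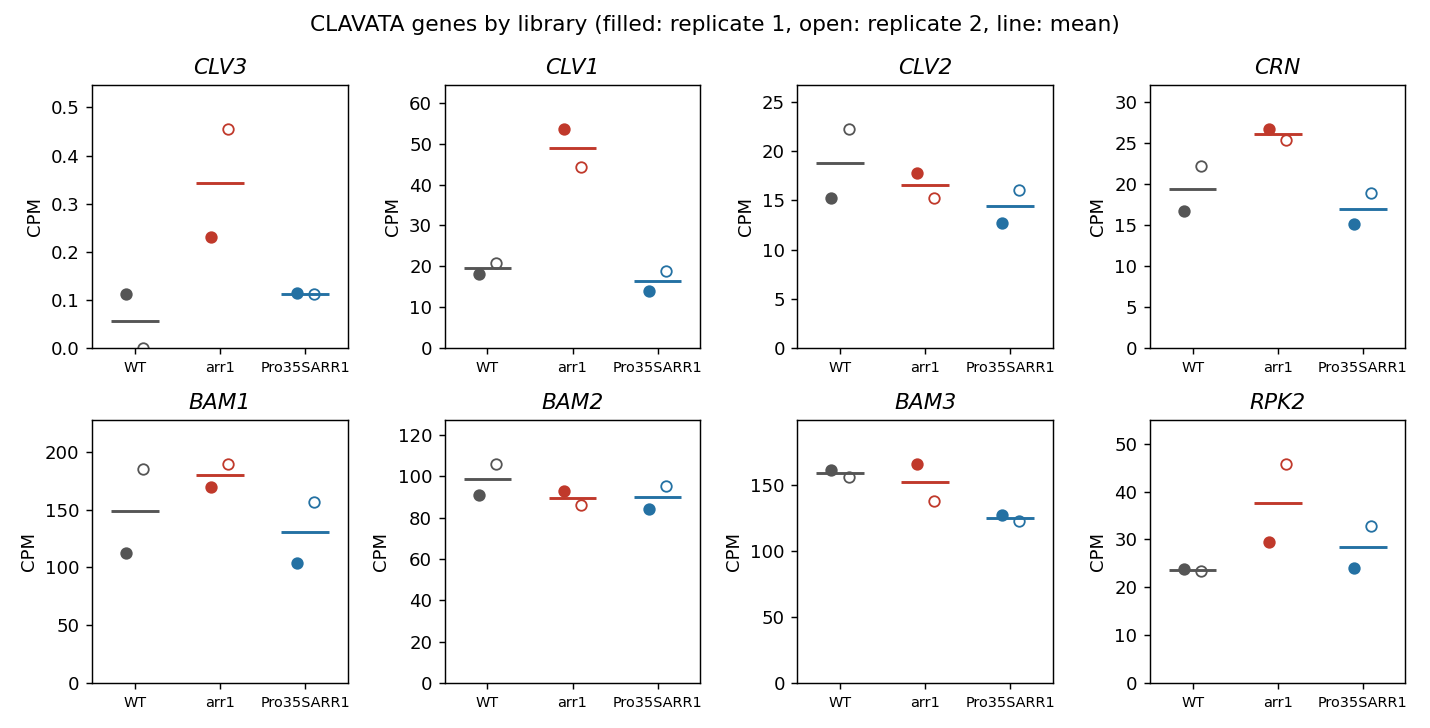
Level of each of the 8 genes in CPM (vertical axes, all starting at 0 and scaled per gene) in the 3 genotypes, with filled points for replicate 1, open points for replicate 2 and a line at the mean. CLV1 in the arr1-labelled libraries (53.6 and 44.2 CPM) lies above all other libraries, BAM3 is lowest in Pro35SARR1, and CLV3 stays under 0.5 CPM throughout.

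For the mutant, the question was how these genes stood in arr1 relative to WT. CLV1 rose from 19.5 ± 1.95 to 48.9 ± 6.69 CPM (SD, n = 2 each), 2.50-fold higher with a 95% interval of 1.78 to 3.52-fold (log2 fold change 1.32, SE 0.199, adjusted p = 0.0392, edgeR quasi-likelihood test over 18083 genes). It was 1 of 7 tested members called, against 2.99% of all genes (1.09% higher and 1.9% lower), and 0 members were called lower. The authors' deposited table for this comparison lists 437 genes. Of the 8 genes studied here CLV1 alone is among them, with a log2 fold change of 1.31 and an adjusted p-value of 5.31e-05. In bulk RNA, fewer or more cells of a type and less or more RNA per cell cannot be told apart. The summed epidermis, young leaf, shoot meristem and root meristem markers given further on were also highest in the arr1-labelled libraries. WUS, a shoot meristem marker, was highest in Pro35SARR1 instead, and SCR made up most of the root meristem sum. The part of these markers in the result was not tested. The call ended without the low-count filter (edgeR adjusted p = 0.0517), with limma on log2(FPKM + 0.1) (adjusted p = 0.0526), and when any 1 of the 6 libraries was left out. By edgeR the adjusted p for CLV1 was then 0.123 and 0.104 on dropping the first and the second WT library, 0.217 and 0.249 on dropping those of arr1, and 0.0631 and 0.0652 on dropping those of Pro35SARR1. The log2 fold change itself stayed between 1.18 and 1.46 in those 6 fits.

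The other receptor genes did not pass the test in this comparison. RPK2 (AT3G02130, chromosome 3, 380726 to 384405) was at 23.8 and 23.5 CPM in WT and at 29.5 and 45.9 CPM in the arr1-labelled libraries. Its libraries did not overlap, but the latter 2 were 1.55-fold apart (log2 fold change 0.67, 95% interval 0.04 to 1.31, adjusted p = 0.207). CRN (AT5G13290, chromosome 5, 4252842 to 4254894) was at 16.7 and 22.3 CPM in WT and at 26.8 and 25.4 CPM in the arr1-labelled libraries. Its libraries did not overlap either (log2 fold change 0.42, 95% interval −0.08 to 0.92, adjusted p = 0.290). In all, 3 of the 7 tested genes, CLV1, RPK2 and CRN, were higher in both arr1-labelled libraries than in both WT libraries, a state that 27.2% of all genes shared.

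CLV2 and the BAM genes overlapped between arr1 and WT. CLV2 (AT1G65380, chromosome 1, 24286826 to 24289249) was at 15.2 and 22.3 CPM in WT and at 17.8 and 15.3 CPM in the arr1-labelled libraries (log2 fold change −0.18, 95% interval −0.79 to 0.42, adjusted p = 0.712). CLV2 and CRN, whose products work as a pair, thus had estimates of opposite sign, and that of CLV2 turned positive (0.11) without WT replicate 2. BAM1 (AT5G65700, chromosome 5, 26281711 to 26285413) was at 112.6 and 184.8 CPM in WT and at 170.02 and 189.9 CPM in the arr1-labelled libraries. The first WT library of BAM1 stood apart from the other 3 (log2 fold change 0.28, 95% interval −0.44 to 0.99, adjusted p = 0.626), and without it the estimate was −0.049. BAM2 (AT3G49670, chromosome 3, 18417568 to 18421106) was at 90.9 and 106.2 CPM in WT and at 92.8 and 86.1 CPM in the arr1-labelled libraries. Its interval was narrow, from −0.45 to 0.17 on the log2 scale (adjusted p = 0.561). BAM3 (AT4G20270, chromosome 4, 10949661 to 10953083) was at 160.9 and 156.1 CPM in WT and at 166.0 and 138.0 CPM in the arr1-labelled libraries (95% interval −0.35 to 0.23, adjusted p = 0.802). Changes as large as the CLV1 estimate (1.32) lie outside the intervals of all other tested genes, narrowly so for RPK2 (upper limit 1.31). The interval of CLV1 itself (0.83 to 1.82) overlaps those of BAM1, CRN and RPK2. Over the 7 tested genes the median log2 fold change was 0.28, against −0.0020 over all genes.

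In Pro35SARR1 against WT no member was called (0 of 7, with 16 of 18083 genes or 0.0885% called in all), and 1 member was under an unadjusted p of 0.05 in the edgeR test. DESeq2 (1.54% of all genes called) and the fit with the replicate number as a block (2.07% called) also called 0 members. The member with an unadjusted p under 0.05 was BAM3, a receptor known from root phloem, where it perceives the peptide of CLE45. The edgeR test put 2 members under that limit in arr1 against WT, CLV1 and RPK2. It also put 2 members there in Pro35SARR1 against arr1, CLV1 and CRN. The share of all genes under that limit was not counted, here or for the lists below. BAM3 was at 126.7 and 122.3 CPM in Pro35SARR1, below both WT libraries, 0.785 times the WT level with an interval of 0.642 to 0.961 (log2 fold change −0.35, SE 0.118, adjusted p = 0.422). RPK2 was higher without overlap, by 0.27 on the log2 scale (adjusted p = 0.806). Of all genes, 18.6% were lower and 18.6% higher without overlap in this comparison. CLV1 was 0.836 times its WT level with an interval of 0.591 to 1.18 (adjusted p = 0.759). For CLV2, CRN, BAM1 and BAM2 the log2 fold changes ran from −0.38 to −0.13, and their libraries overlapped with those of WT.

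**Figure D2:**
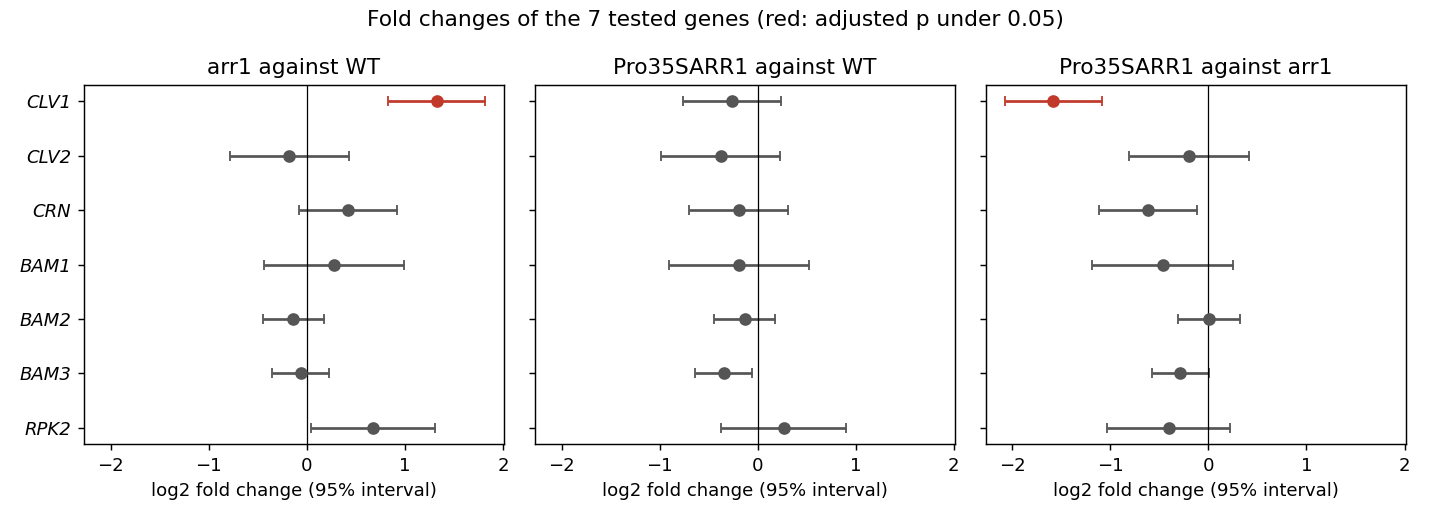
Log2 fold changes of the 7 tested genes (points) with 95% intervals (bars) in the 3 comparisons, from the edgeR fit over all genes, with adjusted p under 0.05 in red. CLV1 is the 1 gene in red, at 1.32 in arr1 against WT and −1.58 in Pro35SARR1 against arr1.

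Pro35SARR1 and arr1 were also compared directly. These comparisons share samples, so their values are given side by side and not as support for each other. CLV1 was 0.334 times as high in Pro35SARR1 as in the arr1-labelled libraries, with an interval of 0.237 to 0.472 (log2 fold change −1.58, SE 0.201, adjusted p = 0.0201). It was 1 of 7 tested members called, against 6.47% of all genes and 2.38% called lower. The edgeR call ended on dropping either arr1-labelled library (adjusted p = 0.143 for replicate 1 and 0.137 for replicate 2) or either Pro35SARR1 library (adjusted p = 0.105 and 0.0660). CRN was at 15.1 and 18.9 CPM in Pro35SARR1, below both arr1-labelled libraries (log2 fold change −0.62, 95% interval −1.12 to −0.12, adjusted p = 0.133, not called). With the replicate number as a block CRN was called too (adjusted p = 0.0486), in a fit that called 20.3% of all genes. The log2 ratio of same-numbered libraries was −0.82 and −0.43. CLV1, CRN, BAM1 and BAM3 were lower in both Pro35SARR1 libraries than in both arr1-labelled ones, as were 30.1% of all genes. BAM2 differed least, with a log2 fold change of 0.0060 and an interval of −0.31 to 0.32 (adjusted p = 0.982), and its sign turned under scaling by library totals alone.

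Levels per length were compared with FPKM (fragments scaled to transcript length and library size), which the authors deposited and which was summed over isoforms. In WT, BAM3 at 48.1 ± 0.876 FPKM and BAM1 at 43.9 ± 15.2 FPKM (SD, n = 2) stood highest and overlapped. BAM2 followed at 28.5 ± 3.20 FPKM and CRN at 12.8 ± 2.83 FPKM. CLV2 at 7.94 ± 2.14 FPKM and RPK2 at 6.39 ± 0.0487 FPKM nearly touched, since the lower CLV2 library and the higher RPK2 library were both at 6.42 FPKM. CLV1 came next at 5.69 ± 0.565 FPKM and CLV3 was last at 0.185 ± 0.261 FPKM. CLV1 was thus the least abundant of the receptor transcripts in WT, near the middle of all genes (49.7% of genes in the table lay below it). In the arr1-labelled libraries it stood at 14.0 ± 1.82 FPKM, below CRN (17.2 ± 0.777 FPKM) and above RPK2 (10.04 ± 3.14 FPKM) and CLV2 (6.89 ± 0.699 FPKM). In Pro35SARR1 it was again the lowest receptor transcript, at 4.76 ± 1.07 FPKM, where RPK2 overlapped with CLV2 and CLV2 with CLV1. BAM1 and BAM3 overlapped in every genotype and held the first 2 places.

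Within the related kinases CLV1, BAM1, BAM2 and BAM3, the CLV1 share of transcripts was largest in the arr1-labelled libraries. CLV1 made up 4.66% and 4.38% of their summed FPKM in the WT libraries. It made up 10.9% and 9.48% in the arr1-labelled ones, and 4.15% and 4.69% in Pro35SARR1. BAM3 transcripts outnumbered CLV1 transcripts per length by 9.21 and 7.80 to 1 in WT, by 3.23 and 3.26 to 1 in the arr1-labelled libraries, and by 9.50 and 6.79 to 1 in Pro35SARR1. BAM2 held 22.6 ± 0.703% of the sum in WT, 18.6 ± 0.309% in the arr1-labelled libraries and 24.3 ± 0.997% in Pro35SARR1 (SD, n = 2). The BAM1 and BAM3 shares overlapped between all genotypes. In WT alone BAM1 held 29.3% and 39.3%, and BAM3 held 42.9% and 34.2%. With 2 libraries a group no exact permutation test of these shares can reach 0.05, so they were not tested. The sources used here do not give the treatment of reads shared by paralogs, so reads of BAM1 and BAM2 in particular may be split between them.

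**Figure D3:**
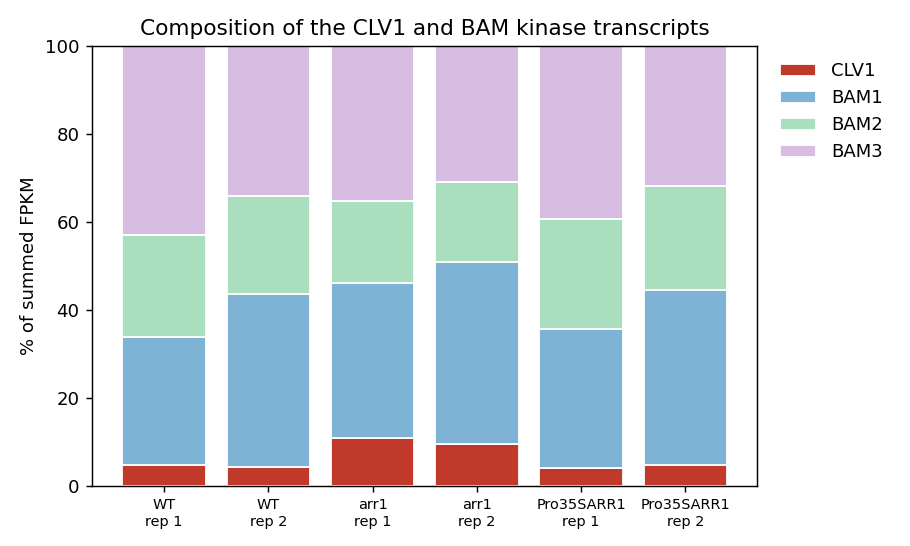
Percent of the summed FPKM of CLV1, BAM1, BAM2 and BAM3 (vertical axis) held by each gene in each of the 6 libraries. The CLV1 segment is 10.9% and 9.48% in the arr1-labelled libraries and between 4.15% and 4.69% in the other 4.

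BAM1 was the 1 tested member that was higher in replicate 2 than in replicate 1 of every genotype. Its second library was 1.64 times the first in WT, 1.12 times in the arr1-labelled libraries and 1.52 times in Pro35SARR1. For BAM3 the corresponding ratios were 0.970, 0.831 and 0.966. All but CLV3, CRN and BAM1 had a single isoform. The second isoform of BAM1 took 1.16% to 4.35% of its counts. CRN has 3 isoforms in the table. The one of 1426 bases took 3.85% of its counts in WT replicate 1 and 0 in the other 5 libraries. The one of 1509 bases took 51.6% and 64.5% of its counts in WT, 73.0% and 64.6% in the arr1-labelled libraries and 64.6% and 49.8% in Pro35SARR1. The shares in Pro35SARR1 overlapped with those of both other genotypes, while the higher WT share (64.5%) lay just under the lower share in the arr1-labelled libraries (64.6%).

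Among the partners of the loop, WUS stood at 13.9 and 5.96 CPM in WT, at 10.5 and 6.04 CPM in the arr1-labelled libraries and at 41.1 and 29.4 CPM in Pro35SARR1. WUS did not pass the test in Pro35SARR1 against WT (log2 fold change 1.83, adjusted p = 0.305), but with the replicate number as a block it did (adjusted p = 0.0297). The same held for WUS in Pro35SARR1 against arr1 (log2 fold change 2.09, adjusted p = 0.0594 without and 0.00341 with the block). DESeq2 called 1 of the 3 shoot meristem markers WUS, STM and KNAT1 higher in each of these comparisons. WUS and CLV1 were thus highest in different genotypes, and CLV3 stayed near the detection limit where WUS was highest. In the list of 13 transcription factors around the loop, all of them tested, 2 rose and 0 fell in arr1 against WT, where 1.09% of all genes were called higher and 1.9% lower. This list too was chosen with earlier results of these data known, so its counts are descriptions only. The fit with the block, here and below, called 15.7% of all genes in arr1 against WT. It called 2.07% in Pro35SARR1 against WT and 20.3% in Pro35SARR1 against arr1. With the block 3 were higher and 1 lower, adding ARR7, a response regulator gene (log2 fold change 0.72, block adjusted p = 0.0142), and HAM3. The 2 without it were STM, which maintains the meristem (22.8 ± 4.35 against 4.28 ± 1.58 CPM, adjusted p = 0.0355), and LFY, a floral identity gene (2.52 ± 0.146 against 0.113 ± 0.000246 CPM, the latter under the level of 3 counts, adjusted p = 0.0372). In Pro35SARR1 against WT 1 rose, ARR1 itself, and 0 fell. In Pro35SARR1 against arr1 ARR1 rose while STM and LFY fell (adjusted p = 0.0289 and adjusted p = 0.0236). With the block 3 were higher, ARR1, WUS and HAM3, and 2 lower, STM and LFY. HAM1, HAM2, HAM3 and HAM4, which encode partners of WUS, were not called in any comparison without the block. With it HAM3 was lower in arr1 against WT (log2 fold change −0.58, adjusted p = 0.205 without and 0.0236 with the block) and higher in Pro35SARR1 against arr1 (log2 fold change 0.43, adjusted p = 0.283 without and 0.0406 with the block).

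Of 15 co-receptors and related receptor kinases, all tested, 3 rose and 0 fell in arr1 against WT, 0 were called in Pro35SARR1 against WT (0 at an unadjusted p under 0.05 by edgeR, 0 by DESeq2), and the same 3 genes fell in Pro35SARR1 against arr1. Over all genes 2.99%, 0.0885% and 6.47% were called in these comparisons. The list was chosen with earlier results of these data known, so its counts and medians are descriptions only. The 3 genes were ER, ERL2 and ACR4. With the block ERL1, another relative of ER, was also lower in Pro35SARR1 against arr1 (log2 fold change −1.04, adjusted p = 0.175 without and 0.0340 with the block). ER, the receptor kinase ERECTA of stem growth and stomatal spacing, was at 102 ± 9.37 CPM in the arr1-labelled libraries, 3.49 ± 1.58 CPM in WT and 6.18 ± 2.63 CPM in Pro35SARR1 (SD, n = 2; arr1 against WT log2 fold change 4.86, SE 0.387, adjusted p = 0.0213). Its relative ERL2, in the same order, was at 60.8 ± 1.03, 6.42 ± 0.304 and 6.36 ± 2.07 CPM (log2 fold change 3.24, SE 0.235, adjusted p = 0.0151). ACR4, a receptor kinase of epidermis and root cap that perceives the peptide of CLE40 in roots, was at 18.9 ± 0.853, 8.50 ± 0.539 and 7.89 ± 1.17 CPM (log2 fold change 1.15, SE 0.193, adjusted p = 0.0468). Not called were the kinase genes AT1G60800, AT2G23950, AT4G30520 and AT5G45780. Their log2 fold changes in arr1 against WT ran from 0.32 to 0.40, with adjusted p from 0.231 to 0.562. The list had a median log2 fold change of 0.34 in arr1 against WT, −0.012 in Pro35SARR1 against WT and −0.41 in Pro35SARR1 against arr1, beside −0.0020, −0.0027 and −0.019 over all genes.

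The other CLE peptide genes were mostly silent or low in CPM. Of 31 such genes 10 passed the filter, and 0 were called in any of the 3 comparisons by edgeR, with or without the block, and by DESeq2. At an unadjusted p under 0.05 by edgeR there were 2 in arr1 against WT, 0 in Pro35SARR1 against WT and 2 in Pro35SARR1 against arr1. The share of all genes under that limit was not counted, so whether these counts exceed it is not known. The remaining 21 reached at most 1.15 CPM in any library, and 7 of them were at 0 in all 6 libraries. CLE41, whose peptide acts in vascular tissue, was the most abundant at 58.8 ± 21.1 CPM in WT, 46.2 ± 6.18 CPM in the arr1-labelled libraries and 47.8 ± 12.9 CPM in Pro35SARR1 (SD, n = 2). CLE25 and CLE17 had the smallest p in arr1 against WT (log2 fold change 1.50 and 1.16, unadjusted p = 0.0121 and 0.0106, adjusted p = 0.115 and 0.109 by edgeR). These 2 were picked after their values were seen. Of 7 genes of downstream signalling, among them the phosphatase genes PLL1 and KAPP, 0 were called in any comparison by edgeR, with median log2 fold changes of 0.12, 0.019 and −0.080. At an unadjusted p under 0.05 there were 1, 0 and 1. The 1 gene was MPK3, a mitogen-activated protein kinase gene, at 63.3 ± 8.18 CPM in WT, 114.9 ± 19.5 CPM in the arr1-labelled libraries and 75.5 ± 5.70 CPM in Pro35SARR1 (SD, n = 2). With the block MPK3 was called in arr1 against WT (adjusted p = 0.0216, and 0.0581 without the block) and in Pro35SARR1 against arr1 (adjusted p = 0.0459, and 0.0896 without it). DESeq2 also called 1 gene of the list in each of these comparisons. Over all 18083 genes it called 1405 in arr1 against WT, and its count for Pro35SARR1 against arr1 is given further on.

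Summed markers of epidermis, young leaf, shoot meristem and root meristem were highest, like CLV1, in the arr1-labelled libraries. Those of mesophyll, phloem and xylem were not. The 3 root meristem markers summed to 23.3 to 31.7 CPM in WT, 40.4 to 48.5 CPM in the arr1-labelled libraries and 19.4 to 23.9 CPM in Pro35SARR1. SCR made up most of each of these sums. The summed level of 3 epidermis markers was 27.4 to 49.7 CPM in WT, 528 to 562 CPM in the arr1-labelled libraries and 34.4 to 50.2 CPM in Pro35SARR1, and the young leaf markers FIL, YAB3 and AN3 summed to 11.4 to 12.1, 131 to 140.4 and 13.7 to 19.7 CPM. In arr1 against WT 2 of 3 epidermis markers rose by edgeR, ATML1 (log2 fold change 3.90, adjusted p = 0.00704) and PDF1 (log2 fold change 3.87, adjusted p = 0.0247), and all 3 young leaf markers rose. Over all genes 1.09% were called higher and 1.9% lower in this comparison. The marker lists were chosen with earlier results of these data known, so their counts are descriptions only. The 3 shoot meristem markers WUS, STM and KNAT1 summed to 41.1 to 43.5, 68.7 to 93.9 and 58.7 to 64.4 CPM, and 1 of them, STM, rose in arr1 against WT (2 with the block, STM and KNAT1). WUS, by contrast, averaged 8.24 CPM in the arr1-labelled libraries, 9.91 CPM in WT and 35.2 CPM in Pro35SARR1. The 2 mesophyll markers summed to 2248 to 2863 CPM in WT, 1537 to 1901 CPM in the arr1-labelled libraries and 1165 to 1541 CPM in Pro35SARR1. Phloem, xylem, root meristem and mesophyll markers had no edgeR call in arr1 against WT, with 1 marker of each list under an unadjusted p of 0.05 (with the block 1 phloem and 2 mesophyll markers were lower and 1 root meristem marker higher). The 5 phloem markers summed to 914 to 1376 CPM in WT, 452 to 506 CPM in the arr1-labelled libraries and 1117 to 1350.3 CPM in Pro35SARR1. SUC2 alone carried this difference (267.0 ± 59.8 CPM in the arr1-labelled libraries against 906 ± 363 CPM in WT, SD, n = 2). Without SUC2, a choice made after its values were seen, the sums overlapped at 213 and 265 CPM in WT, 197 and 227 CPM in the arr1-labelled libraries and 199 and 243.0 CPM in Pro35SARR1. In Pro35SARR1 against arr1 all 3 epidermis and all 3 young leaf markers fell, as did STM, KNAT1 and SCR (adjusted p = 0.0289, 0.0279 and 0.0438 by edgeR), while SUC2 rose (adjusted p = 0.0330). Of all genes 6.47% were called in this comparison, and 2.38% were called lower. WOX5, at 0 in both Pro35SARR1 libraries, was the 1 marker at 0 in every library of a genotype.

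**Figure D4:**
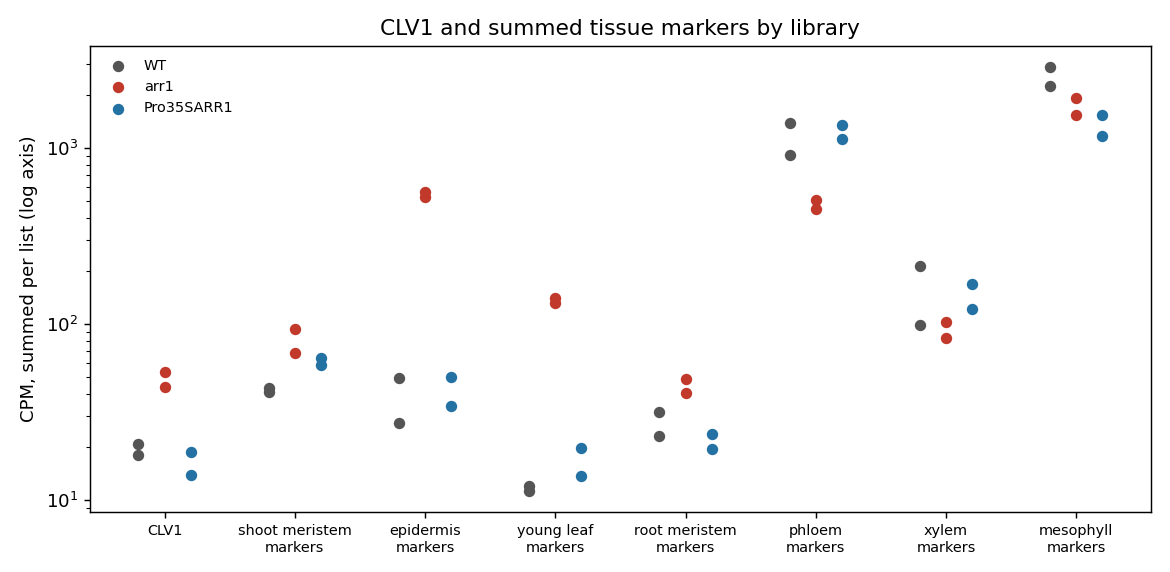
CLV1 and the summed levels of 7 lists of tissue markers in CPM (vertical log axis), 1 point per library, by genotype. CLV1 and the epidermis, young leaf, shoot meristem and root meristem sums are highest in both arr1-labelled libraries. WUS, a shoot meristem marker, is highest in Pro35SARR1 instead, and SCR makes up most of the root meristem sum. The phloem sum is lowest in the arr1-labelled libraries (452 to 506 CPM), which rests on SUC2 alone.

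For the tested members, the gene with the most similar profile over the 6 libraries was found by Pearson's r of log2 CPM among 14835 genes with a mean of at least 5 CPM. The nearest to CRN was ZFP3 (r = 0.997), to RPK2 SCL30 (r = 0.984), to CLV2 AT5G11490 (r = 0.994), to BAM1 AT1G04830 (r = 0.996), to BAM2 AT5G64460 (r = 0.988) and to BAM3 AT4G14096 (r = 0.988). Each nearest gene was picked as the highest of 14835 values over only 6 libraries, so its r is high by selection. An r of 0.95 was exceeded by 204 genes with CLV1, 198 with CRN and 202 with BAM1. It was exceeded by 21 with CLV2, 23 with BAM2, 21 with BAM3 and 12 with RPK2. Among the members themselves CLV1 and CRN (r = 0.927) and CLV2 and BAM2 (r = 0.931) were most alike, while CLV2 and its partner CRN had r = 0.580. These values are descriptions over 6 libraries of 3 genotypes, which share their depth and scaling.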

How the data were processed

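RNA of 6 libraries, 2 per genotype, was analysed from the deposited table of isoforms. Per the file headers, the authors list an estimated count and FPKM per isoform. CASAVA and DESeq are named, with no role, in the submitters' processing notes. Aligner, quantifier, strand use and genome build were not found in the sources used here. For arr1 and WT the authors also deposited a log2 fold change, an adjusted p-value and a column named as a count, here a score, because it follows the estimates. Coordinates are those of the deposited table, and the 8 loci start and end within 484 bases of their TAIR10.1 positions.

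Gene totals of the estimated counts were rounded to whole numbers. After filterByExpr and TMM scaling they were tested by the quasi-likelihood F test of edgeR 4.0.16 in R 4.3.3, with all 6 libraries in the fit, 1 mean per genotype and no block, adjusted by Benjamini-Hochberg over 18083 genes at 0.05. CPM uses TMM-scaled library sizes. Each SE was derived from the fold change and F, with 3 residual degrees of freedom before moderation. Steps were tested on simulated data. Alternatives used DESeq2 1.42.0, limma 3.58.1 on log2(FPKM + 1) and log2(FPKM + 0.1), no filter, no normalization factors, 1 isoform per gene, a replicate block and each library left out.

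Same-numbered libraries deviated together from their genotype means (Pearson's r 0.363, 0.570 and 0.366 for the 3 pairs of genotypes over 14842 genes). The numbers in the sample titles were therefore taken to pair them in the fit with a replicate block. The main fit did not use this pairing. The members, the 4 pathway lists (67 genes) and the 7 marker lists (23 genes) were chosen with earlier results of these data known. Named genes were the members, WUS, ARR1, list genes called in any comparison and the nearest profile of each member; others serve as examples. POL and 1 mesophyll marker were not analysed here. The nearest profile of CLV1 is not reported here.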

Additional observations from a re-analysis of the deposited data

How the results depend on the processing

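CLV1 kept its direction in arr1 against WT and in Pro35SARR1 against arr1 under all 13 alternatives run. In arr1 against WT it lost its call, so that 0 members were called, without the low-count filter (adjusted p = 0.0517) and with limma on log2(FPKM + 0.1) (adjusted p = 0.0526). With 1 library left out 0 members were called in both comparisons with WT and 0 to 1 in Pro35SARR1 against arr1. The replicate block kept the CLV1 calls (adjusted p = 0.0108 and adjusted p = 0.00551), called 2 members in Pro35SARR1 against arr1 and changed no other call of a member. It raised the calls over all genes from 541 to 2847, from 16 to 375 and from 1170 to 3679 in the 3 comparisons, and DESeq2 gave 1405, 279 and 1882. In arr1 against WT 312 genes were called without the filter, 346 without normalization factors (218 higher and 128 lower, against 198 and 343) and 317 with 1 isoform per gene. In Pro35SARR1 against arr1 the split without factors was 503 and 574, against 739 and 431. In Pro35SARR1 against WT limma called 36 with a pseudocount of 1 and 8 with 0.1. With 1 library left out the counts were 0 to 37, 1 to 4 and 5 to 1082. Scaling by totals alone shifted the median log2 fold change of all genes by 0.13 in arr1 against WT and by −0.11 in Pro35SARR1 against arr1.

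Signs turned for members that were not called, and the cause was not tested. In arr1 against WT CLV2 ranged from −0.44 to 0.11 with 1 library left out (positive without WT replicate 2), BAM1 from −0.049 (without WT replicate 1) to 0.67, and BAM3 from −0.20 to 0.067 (without arr1 replicate 2), and BAM3 was at 0.068 without normalization factors. In Pro35SARR1 against WT CRN ranged from −0.39 to 0.028 and BAM1 from −0.53 to 0.21 (both highest without WT replicate 2), and BAM1 was at 0.077 without Pro35SARR1 replicate 1. In Pro35SARR1 against arr1 BAM2 was at −0.10 without normalization factors, −0.00030 with 1 isoform per gene, −0.049 without arr1 replicate 2 and from −0.077 (without Pro35SARR1 replicate 2) to 0.090 with 1 library left out. BAM2 held 19.0% of the 4 kinases' estimated counts in the arr1-labelled libraries, against 18.6% of their FPKM. CLV3 and the 21 CLE genes that were not tested had too few counts to be compared, and the reason for that was not tested.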
